A study of Mus musculus with 23 samples.

Results

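Undifferentiated A404 cells were compared with a pool of whole mouse embryos on the 6 Control arrays of a series of 23. The members were chosen by their group label alone, Control, and not by any measured value. A404 is 1 clone of P19, a mouse embryonal carcinoma line. Control cells were grown to near confluence in medium with 7.5% fetal bovine serum, received neither retinoic acid nor puromycin, and were harvested at time 0, with 5 to 6 plates per replicate. On every array their RNA carried the red dye and RNA pooled from whole embryos of day 17.5 carried the green dye. The other 17 arrays used the same reference for cells of the same clone under 1 µmol/L all-trans retinoic acid for 48 h (RA48, n = 5) or 96 h (RA96, n = 6), and for cells put through 48 h of puromycin after 96 h of retinoic acid (Puromycin, n = 6). As background on the clone, A404 cells carry a puromycin resistance gene driven by the Acta2 promoter. Acta2 encodes the alpha-actin of smooth muscle.

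Embryonal carcinoma cells are the stem cells of teratocarcinomas. They divide quickly, share with the early embryo a network of transcription factors around Oct4, Sox2 and Nanog, and methylate DNA de novo through Dnmt3b. A whole embryo late in gestation is a mixture of organs, in which liver, blood, muscle, skeleton, skin, brain and connective tissue each give their own abundant transcripts. The comparison therefore sets 1 proliferating cell type against the sum of the differentiated tissues. In bulk RNA a lower ratio cannot tell fewer cells of a type from less RNA per cell.

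Each value is a log2 ratio of cell over embryo RNA: 1 stands for 2-fold more RNA of a gene in the cells, -1 for 2-fold less, and 0 for equal shares. The deposited log ratios were taken to be log10, judged from the range of the values, and fold sizes rest on that reading while signs and p-values do not. A gene is called when the limma adjusted p against a ratio of 0 was under 0.05 over all 17863 rows compared and all 6 arrays had the same sign. Dyes were not swapped, so a dye bias of a probe and a difference between cells and embryo cannot be told apart. The reference was a single pool whose own spread does not enter the test. The labels do not say whether the replicates were separate cultures, so the p-values reflect only how far these arrays varied, and that variation may be technical.

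The 6 arrays had median log2 ratios of -0.08 to 0.02 over all rows. Replicates 1 to 3 and replicates 4 to 6 formed 2 sets that the labels do not name. Across rows, Pearson's r was 0.914 to 0.951 between arrays of the first set, 0.898 to 0.927 between arrays of the second set, and 0.750 to 0.825 between arrays of different sets. Whether the sets differ in reference pool, labelling or culture was not tested. Each result below is given over the 6 arrays, with the mean or median of each set for some genes and lists. Where no set values are given, the sets may still differ.

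The labelled state was described first by Sox2 and Pim2, which mark these cells, and by Alb, the serum albumin gene of liver. These genes were chosen with earlier results of these data known, so their values are no independent check of that state. Sox2, an HMG-box factor that pluripotent cells need, had ratios with a lowest value of 4.12, a median of 4.41 and a highest value of 8.18, and a mean of 5.09 ± 1.56 (SD, n = 6; limma adjusted p = 6.88e-05). All 6 arrays lay above 0, and 1 array, replicate 5, lay far above the others. Without replicate 5 the Sox2 mean was 4.48. Pim2, a serine/threonine kinase gene, ranged from 3.99 to 4.30 around a median of 4.21, with a mean of 4.18 ± 0.11 and an 18.1-fold difference. The 6 arrays of Pim2 thus lay close together and far from 0. Alb lay on the opposite side, with a lowest value of -6.23, a median of -4.18 and a highest value of -2.83, and a mean of -4.27 ± 1.53. Every array put Alb below the embryo, but the sets did not overlap, with means of -5.63 in replicates 1 to 3 and -2.91 in replicates 4 to 6.

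Acta2, whose promoter drives the selection marker of the clone, was 29.8-fold lower in Control cells than in the embryo pool. Its 6 values ran from -5.91 through a median of -4.79 to -4.23, a mean of -4.90 ± 0.65. These cells thus started the protocol with Acta2 RNA far below that of an embryo that holds smooth muscle.

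The promoter windows of these 4 genes are shown because their CpG contents differ, a property described further on. They are RefSeq windows on GRCm38.p6, from 250 bases before to 50 bases after the annotated start, written 5′ to 3′ on the gene's strand, with CpG dinucleotides in capitals. The Sox2 window (chr3:34649745-34650044, plus strand) holds 27 CpG and the Pim2 window (chrX:7878056-7878355, plus strand) holds 31. The Alb window (chr5:90460620-90460919, plus strand) holds 3 and the Acta2 window (chr19:34255324-34255623, minus strand) holds 6.
Sox2: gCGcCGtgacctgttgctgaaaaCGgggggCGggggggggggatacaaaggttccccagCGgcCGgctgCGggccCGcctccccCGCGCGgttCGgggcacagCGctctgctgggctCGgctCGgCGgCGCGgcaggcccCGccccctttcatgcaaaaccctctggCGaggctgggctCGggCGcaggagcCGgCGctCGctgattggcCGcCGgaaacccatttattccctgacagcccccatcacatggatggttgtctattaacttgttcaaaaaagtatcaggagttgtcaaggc
Pim2: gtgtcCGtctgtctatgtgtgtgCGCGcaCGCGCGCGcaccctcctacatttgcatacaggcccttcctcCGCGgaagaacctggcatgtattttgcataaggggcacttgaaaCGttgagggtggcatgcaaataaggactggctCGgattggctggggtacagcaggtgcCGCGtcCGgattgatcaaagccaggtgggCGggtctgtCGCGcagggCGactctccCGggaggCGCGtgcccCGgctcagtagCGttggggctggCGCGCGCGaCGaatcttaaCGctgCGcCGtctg
Alb: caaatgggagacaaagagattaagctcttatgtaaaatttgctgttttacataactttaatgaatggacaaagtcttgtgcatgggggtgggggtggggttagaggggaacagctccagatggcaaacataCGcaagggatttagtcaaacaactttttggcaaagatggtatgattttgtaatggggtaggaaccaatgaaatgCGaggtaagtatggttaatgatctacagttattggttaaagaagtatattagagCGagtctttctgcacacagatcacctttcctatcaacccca
Acta2: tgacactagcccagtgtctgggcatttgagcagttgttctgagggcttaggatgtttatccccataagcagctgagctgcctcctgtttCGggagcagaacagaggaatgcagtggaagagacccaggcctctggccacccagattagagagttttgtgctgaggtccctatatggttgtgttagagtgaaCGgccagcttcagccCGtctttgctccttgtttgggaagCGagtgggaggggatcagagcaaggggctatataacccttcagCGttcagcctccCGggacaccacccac

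Of 17863 rows, 11226 (62.8%) were called, 5430 of them higher in the cells (30.4%) and 5796 lower (32.4%). The share among the 8683 genes was 72.2%, with 3144 genes higher (36.2%) and 3127 lower (36%). These shares are the background for every count of list members below, since a gene drawn from anywhere on the array was called more often than not. At 2-fold or more, 2109 rows were higher (11.8%) and 1775 lower (9.94%). Among genes 1361 were higher (15.7%) and 1098 lower (12.6%). Beyond 8-fold the balance turned, with 33 genes above and 82 below the embryo. The median over all genes was 0.00, and 90% of genes lay between -1.65 and 1.72.

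**Figure D1:**
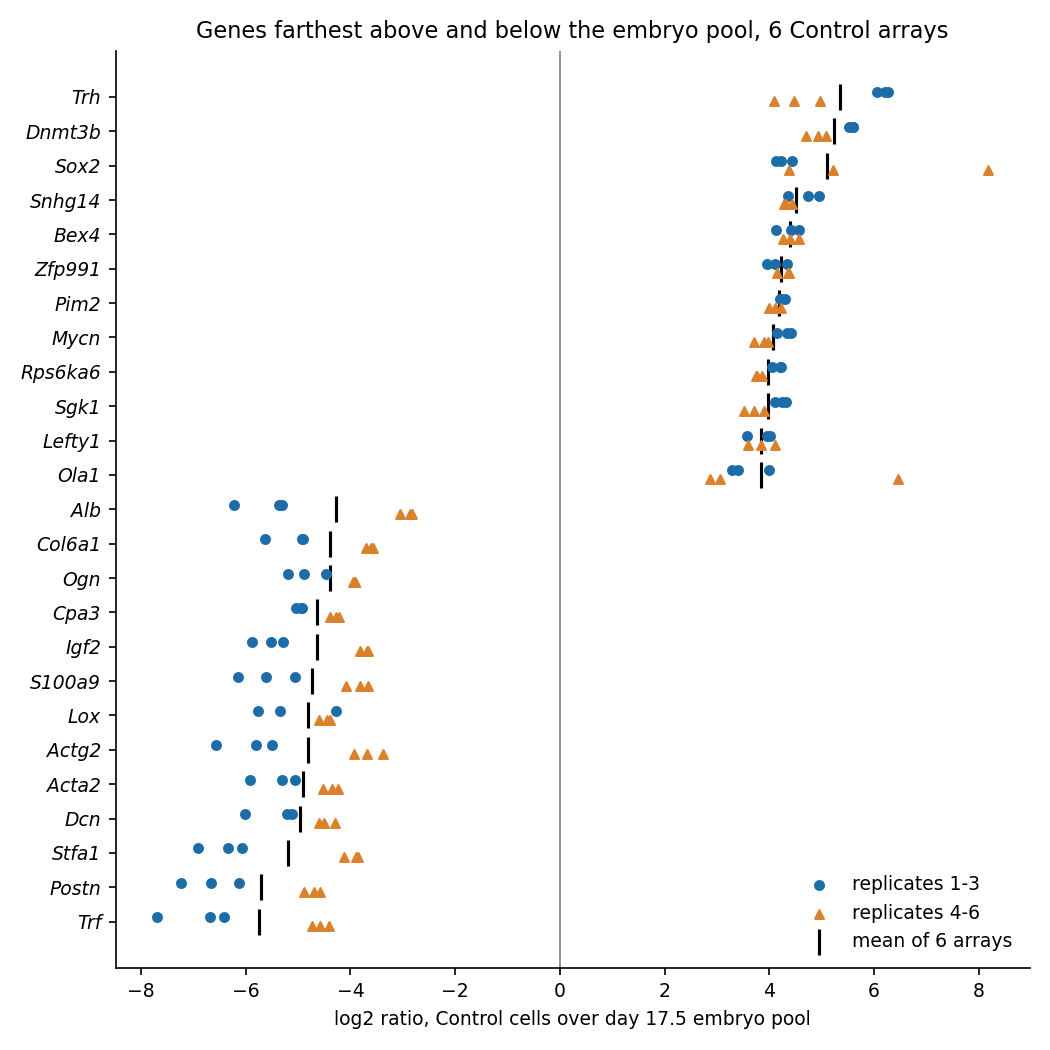
Log2 ratio of Control cells over the embryo pool (x axis) for the 12 genes with the largest means above, the 12 with the largest means below, and Alb (y axis); circles are replicates 1 to 3, triangles replicates 4 to 6, and bars the mean of 6 arrays. All arrays of every gene lie on 1 side of 0, and replicates 1 to 3 do not overlap replicates 4 to 6 for Trh, Dnmt3b, Mycn, Rps6ka6 and Sgk1 above the embryo and for every plotted gene but Lox below it.

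Among genes above the embryo, Trh, which encodes the precursor of thyrotropin-releasing hormone, led with a lowest value of 4.09, a median of 5.51, a highest of 6.27 and a mean of 5.35 ± 0.96. Its sets did not overlap, with means of 6.18 and 4.51. Dnmt3b, the de novo DNA methyltransferase, followed with values from 4.70 through a median of 5.30 to 5.60 and a 37.7-fold mean difference. Its 2 probes gave means of 4.69 and 5.78, so the size depends on the probe and the sign does not.

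Mycn, the N-Myc oncogene, ranged from 3.71 to 4.41 with a mean of 4.08 ± 0.27. Lefty1, a secreted inhibitor of Nodal signalling, ranged from 3.58 to 4.11 with a mean of 3.85 ± 0.22. Both genes are known from pluripotent cells, and in both the arrays differed by less than 1 log2 unit. The kinase gene Sgk1 (3.51 to 4.32, median 4.00) and Rps6ka6, a gene of the RSK kinase family (3.75 to 4.22, median 3.95), were close to each other in size. Bex4, a small X-linked gene, had values from 4.12 to 4.56 and set means of 4.36 and 4.41. The zinc-finger gene Zfp991 lay between 3.96 and 4.38. Snhg14, the host RNA of an imprinted small nucleolar RNA cluster, lay between 4.28 and 4.95, and its 2 probes gave 4.25 and 4.77.

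Ola1, an ATPase gene, completed the 12 leading genes above the embryo, but 1 array carried part of its mean. Its lowest value was 2.86, its median 3.35 and its highest 6.46, in replicate 4. Without that array the mean moved from 3.84 to 3.32, and the gene remained called.

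Trf, the transferrin gene whose product carries iron in serum, stood lowest of all genes named, with values from -7.69 through a median of -5.57 to -4.40 and a mean of -5.75 ± 1.36. Postn, the periostin gene of connective tissue, had a lowest value of -7.24, a median of -5.51 and a highest of -4.58. For Stfa1, a cysteine protease inhibitor gene, the 6 arrays ran from -6.92 through -5.10 to -3.85. In these 3 genes replicates 1 to 3 all lay below replicates 4 to 6, and their order differs between the sets.

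Dcn (-6.02 to -4.30, median -4.86) encodes decorin, a proteoglycan that binds collagen fibrils, and Lox (-5.77 to -4.27, median -4.53) encodes lysyl oxidase, which crosslinks collagen. Actg2, the smooth muscle gamma-actin gene, ran from -6.57 through -4.72 to -3.38. Actins are close relatives, and cross-hybridisation between their probes was not tested. S100a9, a calcium-binding protein of neutrophils, ran from -6.15 through -4.57 to -3.66, and Cpa3, the mast cell carboxypeptidase, from -5.05 through -4.66 to -4.22. Ogn, a small proteoglycan gene, had a mean of -4.39 ± 0.56, and Col6a1, a collagen VI chain gene, a mean of -4.39 ± 0.88. Igf2, the imprinted fetal growth factor, ran from -5.87 through -4.56 to -3.66, and its 2 probes differed, with means of -5.57 and -3.71.

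Over the 25 genes plotted by array, limma adjusted p-values ran from 2.34e-07 to 0.00016. The sizes and the lack of overlap with 0 of the 24 leading genes follow from how these genes were picked and are no further evidence.

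**Figure D2:**
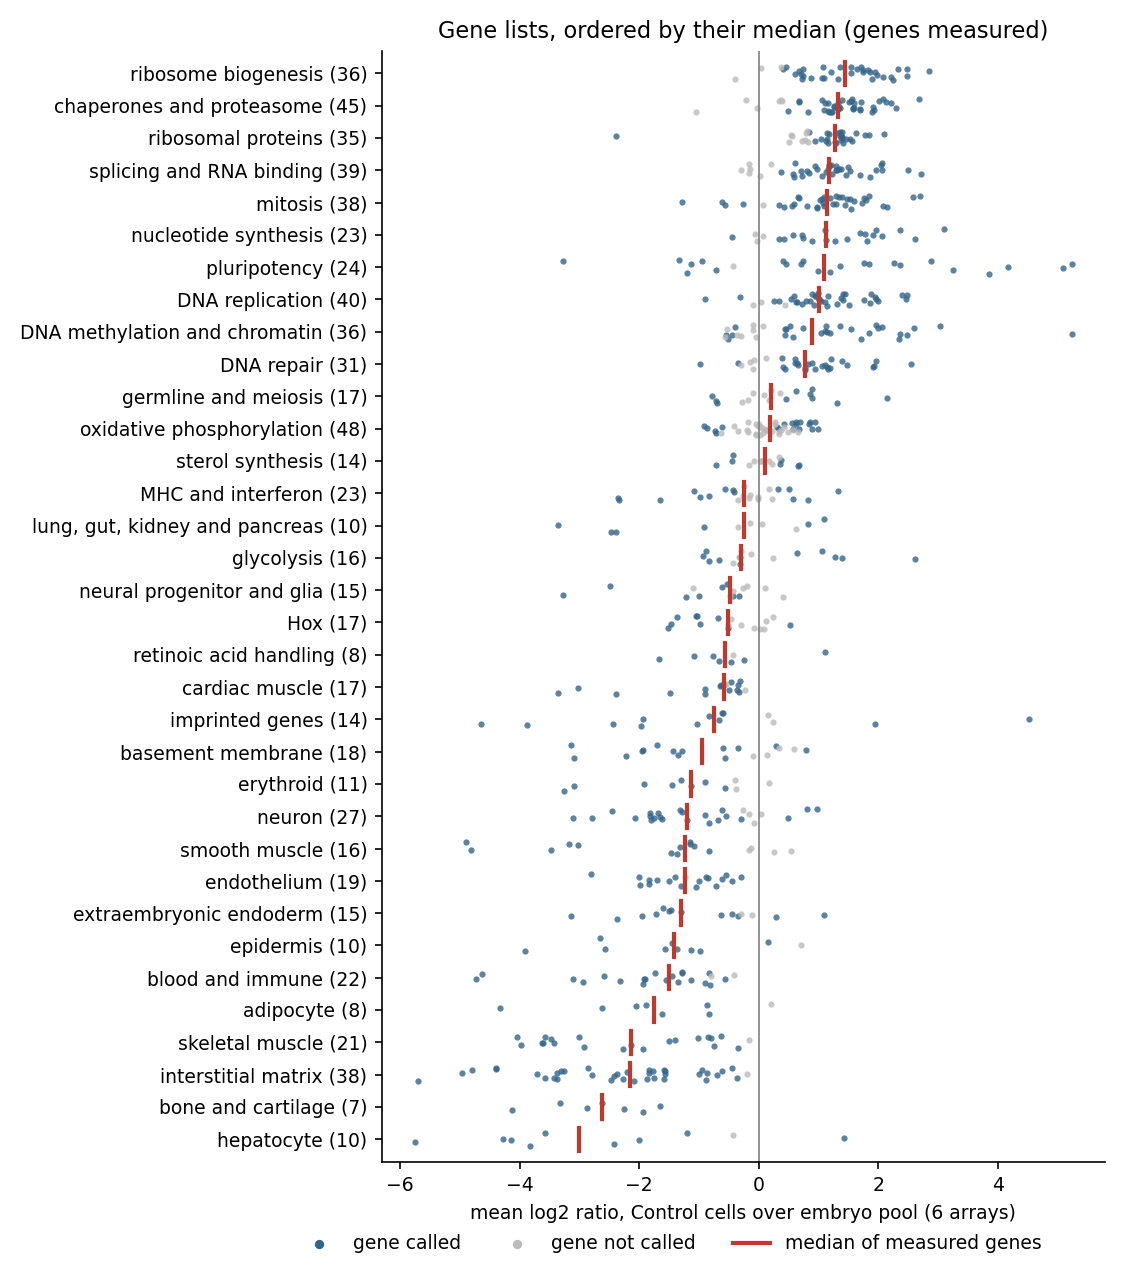
Mean log2 ratio of each measured gene (x axis, 6 Control arrays) in 34 gene lists (y axis, number of genes measured in brackets), ordered by the list median, which is the vertical bar; dark points were called and light points were not. Lists for ribosome production, protein folding and turnover, RNA, nucleotides, cell division, pluripotency, chromatin and DNA repair stand at the top, with medians of 0.78 to 1.44. Connective and organ tissue lists stand at the bottom.

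Pluripotency genes were on the whole above the embryo, with 17 of 24 measured members called higher, 6 called lower and a median of 1.09, against 36.2% of genes called higher and a median of 0.00 over all genes. The list median was 1.22 in replicates 1 to 3 and 0.99 in replicates 4 to 6. Besides Dnmt3b, Sox2 and Pim2, members named after their values were seen include Utf1, a chromatin-bound stem cell factor, at 3.25, Otx2, a homeodomain factor, at 2.88, and Dnmt3l, a partner of Dnmt3b, at 2.37. Nanog, a core factor of the network, was called with a mean of only 0.70. Pou5f1, which encodes Oct4, was not assessed here.

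The 6 members below the embryo were Klf4, Klf5, Cdh1, Nr5a2, Klf2 and Esrrb. Klf4, a Krüppel-like factor also made in skin and gut, had values from -3.65 through -3.22 to -2.87 and a mean of -3.27 ± 0.34. Klf5 had a mean of -1.33 ± 0.26 and Cdh1, the E-cadherin gene of epithelia, a mean of -1.20 ± 0.21. All 3 were negative in each of the 6 arrays and in either set. As background, Klf4, Klf2, Esrrb and Nr5a2 are active in naive embryonic stem cells, as are Zfp42 and Dppa3, which were called higher here at 1.19 and 0.46 and are named after their values were seen.

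Genes of DNA methylation and chromatin were called higher in 24 and lower in 4 of 36 members, with a median of 0.89. Hells, a helicase needed for DNA methylation, stood at 3.03 ± 0.09 with arrays between 2.93 and 3.14. Cbx1, a heterochromatin protein gene, had a mean of 2.59 ± 0.18. Among those below, Hmgb3 (-0.55), Tet2 (-0.51) and Hdac2 (-0.44) differed by less than 2-fold, and only 1 of the 2 Tet2 probes and of the 2 Hdac2 probes was called.

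Germline and meiosis genes did not share a direction: 7 of 17 members were called higher and 3 lower, with a median of 0.20 (set medians 0.57 and 0.13). The 41.2% called higher is near the 36.2% of all genes, and the 17.6% called lower is under their 36%. Sycp3, a protein of the meiotic chromosome axis, was the farthest above, from 1.85 to 2.42 with a mean of 2.14 ± 0.23. Rnf17 (1.30) and Hormad1 (0.89) followed, although only 1 of the 2 Rnf17 probes was called. Kit, the receptor of germ cells and mast cells, was below the embryo at -0.79, as were Tex19.1 (-0.71) and Nanos3 (-0.70).

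Cell division genes were above the embryo in most members. Of 40 DNA replication genes 35 were called higher and 2 lower, with a median of 1.01, and of 38 mitosis genes 33 were called higher and 4 lower, with a median of 1.14. Over the 6 arrays the median ranged from 0.84 to 1.25 for replication and from 1.08 to 1.27 for mitosis. Bub1, a spindle checkpoint kinase gene, had values from 2.62 to 2.78 around a median of 2.69, and Ect2, a regulator of cytokinesis, from 2.37 to 2.74. Mcm10, a replication initiation factor, had a mean of 2.39 ± 0.21. Gmnn, which encodes geminin, had a mean of 2.46 ± 0.39.

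Orc5, a subunit of the origin recognition complex, had the highest mean of the replication list, 2.48 ± 1.48, through replicate 5 at 5.44. Its median was 1.93, and without replicate 5 its mean was 1.89, still called. Mcm3 (-0.89) and Pold1 (-0.32) were the 2 replication members below the embryo, and Pold1 lost its call in replicates 1 to 3 alone (limma adjusted p = 0.0844). Cdc25b, a mitotic phosphatase gene, was below at -1.28 ± 0.22. Mki67, the gene of the proliferation marker Ki-67, was called lower at -0.62, with set means of -1.06 and -0.19, and only 1 of its 2 probes was called. Cenpc1 (-0.57) and Plk1 (-0.27), the latter named after its value was seen, were called lower as well. Cdc25b, Mki67, Cenpc1 and Plk1 thus went against the direction of most mitosis genes.

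Nucleotide synthesis genes were called higher in 19 of 23 members and lower in 1, with a median of 1.13. Dctpp1, which hydrolyses dCTP, had values from 2.87 to 3.32 and a mean of 3.09 ± 0.18. Umps, an enzyme of pyrimidine synthesis, had a mean of 2.61 ± 0.18 and Mthfd1, an enzyme of folate metabolism, a mean of 2.36 ± 0.10. The member below was Tk1, a salvage thymidine kinase gene, at -0.45. DNA repair genes were called higher in 24 of 31 members and lower in 2, with a median of 0.78. Exo1 (2.54), Blm (1.97) and Apex1 (1.92) stood highest in that list, and Nbn (-0.98) and Chek1 (-0.35) were below, Chek1 with no call in replicates 4 to 6 alone (adjusted p = 0.0903).

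Genes for making ribosomes had the highest median of the 34 lists, 1.44, with 33 of 36 ribosome biogenesis genes called higher and 0 called lower. Mybbp1a, a nucleolar protein gene, ranged from 2.59 to 3.05 with a mean of 2.85 ± 0.16. Ddx21, a nucleolar RNA helicase gene, had a mean of 2.48 ± 0.13 and Nop56, a box C/D snoRNP protein gene, a mean of 2.47 ± 0.36. The set medians were 1.40 and 1.47, while single members differed between the sets in either direction: replicates 4 to 6 were called higher in 6 of the 36 genes and lower in 9. Splicing and RNA binding genes were called higher in 33 of 39 members and lower in 0 (median 1.17), with Snrpa1 at 2.71, Sf3a3 between 2.39 and 2.78 and Snrpe at 2.07. Their set medians were 0.83 and 1.35, and replicates 4 to 6 were called higher in 18 of the 39 genes and lower in 1.

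Ribosomal protein genes were called higher in 26 of 35 members and lower in 1, with a median of 1.28. Their level differed by set as a group: the median was 0.68 in replicates 1 to 3 and 1.70 in replicates 4 to 6. The difference between sets was called in 30 of the 35 genes, every time with replicates 4 to 6 higher, against 27.8% of all genes called for this difference and 17.2% with replicates 4 to 6 higher. Rpl6 had set means of 1.59 and 2.59, Rps21 of 1.31 and 2.38, and Rpl38 of 1.07 and 2.47. Rplp2, an acidic ribosomal protein gene, stood apart from the list at -2.39 ± 0.22, with arrays between -2.82 and -2.20. Ribosomal protein genes have many processed copies in the genome, and what each probe binds was not tested.

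Chaperone and proteasome genes were called higher in 39 of 45 members and lower in 0, with a median of 1.32. The chaperone genes Hspa4 (2.27 to 2.97, mean 2.68) and Hsp90aa1 (1.48 to 2.97, mean 2.21) and Cct4, a subunit of the cytosolic chaperonin (1.72 to 2.80, mean 2.29), were all higher in replicates 4 to 6 on average. The set medians of the list were 1.15 and 1.58, and replicates 4 to 6 were called higher in 23 of the 45 genes and lower in 2.

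Energy metabolism did not share a direction. In glycolysis, 5 of 16 members were called higher and 6 lower, with a median of -0.30 (set medians -0.33 and 0.04). These shares, 31.25% and 37.5%, are near the 36.2% and 36% of all genes. Pkm, the muscle type pyruvate kinase gene that dividing cells also use, stood at 2.61 ± 0.16, with Pgk1 at 1.39 and Gapdh at 1.28. Hk1 (-0.94), Pdk1 (-0.88) and Aldoc (-0.83) were below the embryo. Oxidative phosphorylation genes were called higher in 14 and lower in 5 of 48 members, below the background in either direction, with set medians of -0.07 and 0.47. The difference between sets was called in 29 of these 48 genes, every time with replicates 4 to 6 higher, against 17.2% of all genes. A gene whose arrays lay on both sides of 0 could not be called against the embryo. Ndufa7 (0.99), Uqcrh (0.94) and Cox7a2 (0.88) stood highest, and Uqcrc1 (-0.91), Sdha (-0.86) and Atp5d (-0.73) lowest. Of 14 sterol synthesis genes 4 were called higher (28.6%) and 3 lower (21.4%), both shares under those of all genes. Cyp51 (0.67), Dhcr7 (0.66) and Lss (0.38) were above and Mvk (-0.71), Ebp (-0.45) and Hsd17b7 (-0.43) below. Mvk lost its call in replicates 4 to 6 alone (adjusted p = 0.0694), and without replicate 1, 2 or 3.

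Imprinted genes, which are expressed from 1 parental allele and many of which act on fetal growth, were mostly below the embryo: 10 of 14 members were called lower and 2 higher, with a median of -0.75 (set medians -1.06 and -0.61). Besides Igf2, Grb10, an adaptor that restrains growth factor signalling, was tightly below at -4.05 to -3.64 (mean -3.88 ± 0.15), with set means of -3.80 and -3.97. Cdkn1c, a cell cycle inhibitor gene, had values from -3.24 through -2.41 to -1.88. The 2 members above were Snhg14 and Magel2 (1.94 ± 0.06). Both lie in the Prader-Willi cluster, as does Ndn, which was called lower at -1.03 and is named after its value was seen.

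Liver and blood, both abundant in a fetus of this stage, gave strongly negative ratios. Of 10 measured hepatocyte genes 8 were called lower and 1 higher, with a median of -3.0, the lowest of the 34 lists. The set medians were -3.59 and -2.12. After Trf and Alb came Ambp, a plasma protein gene, at -4.86 to -3.73 (mean -4.14 ± 0.41). The member above was Ttpa, the vitamin E transfer protein, at 1.43 ± 0.42. Erythroid genes were called lower in 8 of 11 members and higher in 0, with a median of -1.13. Hbb-b2, an adult beta-globin gene, had a lowest value of -5.42, a median of -3.10 and a highest of -1.68. Slc4a1, the red cell anion exchanger, ran from -3.45 to -2.90 with a mean of -3.09 ± 0.23, and Klf1, the erythroid transcription factor, had a mean of -1.92 ± 0.32. Both Hbb-b2 and Slc4a1 belong to the red cell, and Hbb-b2 (SD 1.73) spread far more over the arrays.

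Immune cell genes were called lower in 20 of 22 members and higher in 0, with a median of -1.50. C1qc, a complement gene of macrophages, followed S100a9 and Cpa3 with values from -4.36 to -2.36. Endothelial genes were called lower in 18 of 19 members, with a median of -1.23, led by Cdh5, the vascular cadherin (-2.81 ± 0.53), Kdr, a VEGF receptor gene (-2.0 ± 0.25), and Ramp2 (-1.99 ± 0.20). Genes of antigen presentation and the interferon response split, with 9 of 23 called lower and 5 higher and set medians of -0.46 and -0.08. The 39.1% called lower is near the 36% of all genes, and the 21.7% called higher is under their 36.2%. Ifitm3 (-2.35), B2m, the light chain of class I molecules (-2.34), and Cd74 (-1.65) were farthest below, and Bst2 (1.32), Psmb10 (0.83) and Irf1 (0.58) above.

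Skeletal muscle genes were called lower in 20 of 21 members and higher in 0, with a median of -2.13. Mylpf, a fast muscle myosin light chain gene, had a lowest value of -5.83, a median of -3.94 and a highest of -2.73, Ckm, the muscle creatine kinase gene, ran from -5.01 to -3.16, and Tnnt3, fast troponin T, from -4.35 to -3.16. Cardiac genes were called lower in 15 of 17 members with a smaller median, -0.58 (set medians -0.95 and -0.40). Csrp3 (-3.36) and Smpx (-3.02), which skeletal muscle also expresses, led that list, ahead of Myl2, a ventricular myosin light chain gene (-2.39). Smooth muscle genes were called lower in 12 of 16 members with a median of -1.23 (set medians -1.49 and -0.86), with Des (-3.47) next to the 2 actin genes.

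Extracellular matrix formed the largest tissue list, and 37 of its 38 interstitial members were called lower, with a median of -2.15 (set medians -2.48 and -1.81). The farthest members were Postn, Dcn and Lox, described above, and 30 of the 38 were at least 2-fold lower, against 12.6% of genes. All 7 measured bone and cartilage genes were called lower, with a median of -2.62. Col2a1, the cartilage collagen gene, had values from -5.76 through -4.03 to -2.89, Ibsp, a bone sialoprotein gene, a mean of -3.33 ± 0.66 and Col9a3 a mean of -2.87 ± 0.51.

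Basement membrane genes were called lower in 12 of 18 members and higher in 2. Col4a1 (-3.13) and Nid1 (-3.10), which encode a collagen IV chain and nidogen, were farthest below, followed by Col15a1 (-2.22). The 2 called above were Col4a6 (0.78) and Lama1 (0.28), and Lama1 lost its call in replicates 1 to 3 alone (adjusted p = 0.119). Extraembryonic endoderm genes, which mark a lineage that P19 derivatives can form, were called lower in 11 of 15 members and higher in 2, with Col4a1, Sparc (-2.37) and Col4a2 (-1.95) at the bottom and Lrp2 (1.09) at the top. The 3 probes of Lrp2 gave means from -0.23 to 2.12, so its place depends on the probe. Of the extraembryonic endoderm genes, Col4a1, Col4a2, Lama1, Lamb1, Sparc, Sox17, Gata4 and Lrp2 also stand in a tissue list and are counted in each. The members named at the bottom are thus also counted among basement membrane or interstitial matrix genes, and this list is not separate from those.

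Epithelial and organ genes followed. In epidermis 8 of 10 members were called lower (set medians -1.73 and -1.12), led by Perp (-3.91), the keratin gene Krt14 (-2.66) and Flg, the filaggrin gene (-2.57). Itgb4 was called higher at 0.16, a difference that lost its call in replicates 1 to 3 alone (adjusted p = 0.373) and without any 1 of the 6 arrays. Of 8 fat cell genes 7 were called lower, among them Fabp4, a fatty acid binding protein gene (-4.34), Cidea (-2.62) and Cd36 (-2.05). For lung, gut, kidney and pancreas 4 of 10 members were called lower, including Lgals4 (-3.35), Cpa1 (-2.47) and Sftpd (-2.39), and 2 were called higher, Lrp2 and Podxl (0.83). The 40% called lower is near the 36% of all genes, so that count does not set the list apart from the array. Set medians of that list were 0.03 and -0.52, so the second set had the lower median here, opposite to most tissue lists.

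Nervous tissue genes were below the embryo as well. Of 27 neuron genes 20 were called lower and 3 higher, with a median of -1.20. Dpysl3, a growth cone protein gene (-3.11 ± 0.48), Map2, the dendrite microtubule protein (-2.79 ± 0.54), and Nsg2 (-2.46 ± 0.29) were farthest below, and Stmn2 (0.97), Th (0.81) and Snap25 (0.49) above, although Snap25 lost its call with the array set as a random block (limma adjusted p = 0.0525). Genes of neural progenitors and glia were called lower in 8 of 15 members and higher in 0, with a median of -0.49 (set medians -0.63 and -0.41). Dlx2, a forebrain factor, was lowest in that list with values from -3.99 to -1.75, ahead of Pmp22, a myelin protein gene (-2.48), and Notch1 (-1.22). The list does not hold Sox2, which neural progenitors also express.

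Positional and retinoid genes showed smaller ratios. Of 17 homeobox genes of the Hox group and their cofactors 8 were called lower and 1 higher, with a median of -0.51. The 47.1% called lower is not far from the 36% of all genes, and the 5.88% called higher is under their 36.2%. Meis1 (-1.52), Hoxd13 (-1.47) and Hoxa5 (-1.36) were lowest, and Hoxa6 was called higher at 0.51, a call lost with all 23 arrays in the fit (adjusted p = 0.0885). The set medians were -0.34 and -0.66. Of 8 genes that make, bind or sense retinoic acid 6 were called lower, with Aldh1a1 (-1.67) and Aldh1a3 (-1.09), which synthesise retinoic acid, and the receptor gene Rxra (-0.77) farthest below. The member above was Rara, a retinoic acid receptor gene, at 1.11 ± 0.43.

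The difference between the sets, replicates 4 to 6 minus replicates 1 to 3, was called by limma in 5150 of 17863 rows (28.8%), with replicates 4 to 6 higher in 2986 (16.7%) and lower in 2164 (12.1%). The sets were known from earlier results of these data, so these p-values are optimistic. The number called fell to 2888 without replicate 4 and 3359 without replicate 5. Ratios were more extreme in the first set: 133 genes were called at least 8-fold lower in the mean of replicates 1 to 3 and 56 in replicates 4 to 6, while 38 and 34 were called at least 8-fold higher. The set means correlated across rows with r = 0.83.

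**Figure D3:**
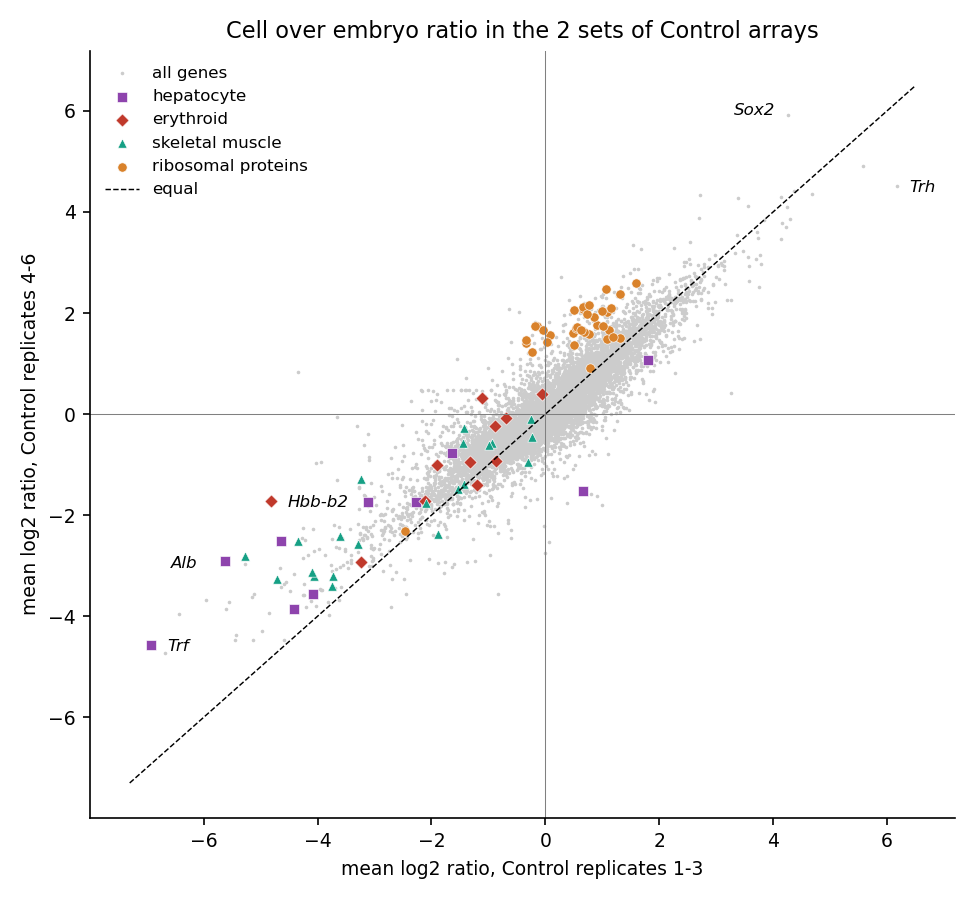
Mean log2 ratio of each gene in Control replicates 1 to 3 (x axis) and in replicates 4 to 6 (y axis), with 4 gene lists coloured and the dashed line marking equality. Ribosomal protein genes lie above the line, with a median difference of 1.08, and so do most of the hepatocyte, erythroid and skeletal muscle genes farthest below the embryo.

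Genes shared between the sets were the rule at larger sizes. Of 6599 genes called in replicates 1 to 3 alone, 5544 (84.0%) were called with the same sign in replicates 4 to 6 alone, where 78.6% of all genes were called. Of the 2810 genes that were also at least 2-fold in the first set, 2678 (95.3%) were called with the same sign in the second. Opposite signs were called in 171 genes. Smad9, a BMP signalling factor gene, was the extreme case, with a mean of -4.34 in replicates 1 to 3 and 0.83 in replicates 4 to 6, a difference of 5.16 ± 0.18 (SE).

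After Smad9, the genes with the largest differences in that direction were Acbd4 (3.61), Hbb-b2 (3.11), Zfp41 (3.07) and Strc (3.06). Zfp41 was called against the embryo over the 6 arrays, but not in replicates 4 to 6 alone (-0.24, limma adjusted p = 0.0508) nor without replicate 1, 2 or 3. In the other direction Bak1, a pro-apoptotic gene, fell from 3.25 to 0.43 between the set means, a difference of -2.83 ± 0.24. Zdhhc13 (-2.81), Efcab1 (-2.74), Atxn1l (-2.73) and Flt4, a lymphatic VEGF receptor gene (-2.61), followed. Of these 10 genes Smad9, Acbd4, Zdhhc13, Efcab1 and Flt4 were not called against the embryo and had arrays on both sides of 0.

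The RA96 arrays were not part of the next comparison, and whether they divide at the same replicate numbers was not tested. Their replicate 4 had a lowest log10 ratio of -2.01, against -1.60 to -1.54 in Control replicates 4 to 6. Whether RA96 means weigh the sets evenly is therefore not known. RA48 had replicates 1 to 5 only, so its means weigh replicates 1 to 3 more than Control and Puromycin means do. The same split of replicates 1 to 3 against the later ones was compared in the 11 RA48 and Puromycin arrays only. There the difference had the same sign in 4778 of the 5150 rows and was called in the same direction in 3790, and r between both differences was 0.71 across rows. For Alb the difference was 2.72 in Control and 2.67 in the other 2 groups, and the median over the ribosomal protein genes was 1.08 and 1.00. These arrays hold other cells but the same reference label. What the split stems from was not tested.

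The leading genes were then followed through the other groups, whose ratios use the same reference. Puromycin minus Control was called in 8263 of 17863 rows (46.3%) and in 53.2% of genes by limma. These differences share the embryo channel, so the pool cancels where it was the same on all arrays. Sox2 had means of 2.87 ± 0.32 in RA48, 0.63 ± 0.52 in RA96 and -0.60 ± 0.55 in Puromycin. Pim2 was already at -0.15 ± 0.05 in RA48, and then at -0.41 and -0.52. Trh (3.35, 0.22 and -0.18) and Dnmt3b (1.93, 0.74 and 0.20) ended near 0. The Puromycin means of these 4 genes thus lay within 1 log2 unit of the embryo pool. The Puromycin arrays were not tested against the pool itself.

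Bex4 ended at 3.01, Mycn at 2.44 and Zfp991 at 2.34, each still above the embryo. Lefty1 had its highest mean in RA48, 5.88 ± 0.38, with 2.23 in RA96 and 1.52 in Puromycin. Sgk1 had its lowest mean in RA48 (1.47) and stood at 2.55 in Puromycin. All 12 genes that led above the embryo were called lower in Puromycin than in Control, with Ola1 losing that call in replicates 4 to 6 alone (adjusted p = 0.0987). Over all rows, 4718 of 17863 were called lower. The 12 genes were picked for high means in the same Control arrays, which favours lower values in Puromycin.

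**Figure D4:**
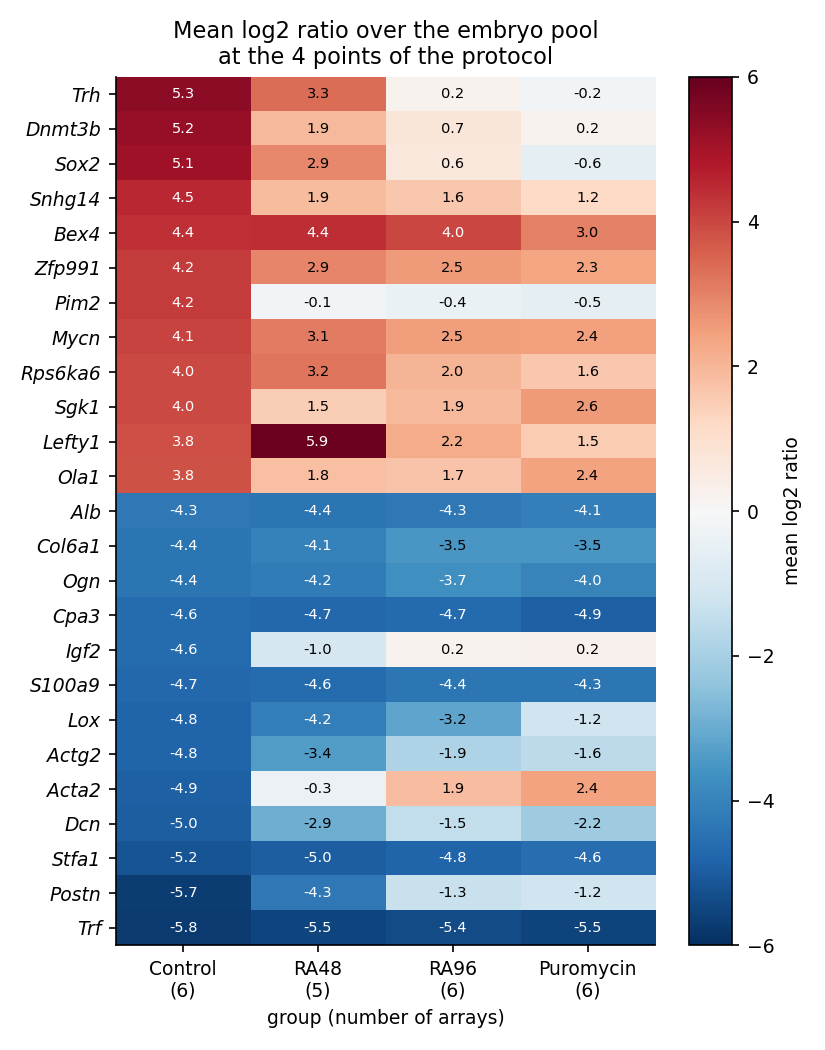
Mean log2 ratio over the embryo pool for the leading genes and Alb (rows) in the 4 groups of the protocol (columns, with the number of arrays); red is above and blue below the embryo, with the value printed in each field. Acta2 goes from -4.9 to 2.4, whereas Alb, Trf, Cpa3 and S100a9 stay blue in each group.

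Of the genes farthest below the embryo, Acta2 changed most, with means of -0.34 ± 0.14 in RA48, 1.87 ± 0.13 in RA96 and 2.40 ± 0.26 in Puromycin, a Puromycin minus Control difference of 7.30 ± 0.21 (SE). Over all rows, 3545 of 17863 were called higher in Puromycin. The genes farthest below were picked for low means in the same Control arrays, which favours higher values in Puromycin. Igf2 rose by 4.89 to a mean of 0.25 ± 0.60 in Puromycin, and whether that differs from the embryo was not tested. Postn (4.50), Lox (3.62), Actg2 (3.25) and Dcn (2.80) rose too, and all 4 stayed below the embryo, at -1.20, -1.18, -1.56 and -2.15. No call was made for Alb (0.15, adjusted p = 0.890), Trf (0.20, adjusted p = 0.831), S100a9 (0.39, adjusted p = 0.630), Cpa3 (-0.26, adjusted p = 0.521), Ogn (0.37, adjusted p = 0.519), Stfa1 (0.61, adjusted p = 0.481) or Col6a1 (0.91, adjusted p = 0.0948). The standard errors of these 7 differences ran from 0.30 to 0.76, a range that also holds those of called genes such as Actg2 (0.65), and a missed call does not show that these genes did not change. With the replicate number as a block Stfa1 (limma adjusted p = 0.0102) and Col6a1 (adjusted p = 0.00111) were called. Both were also called with the array set as a block (limma adjusted p = 0.0019 and 0.00085). Within replicates 4 to 6 alone S100a9 (0.64, adjusted p = 0.00592) and Ogn (0.91, adjusted p = 0.00112) were called as well, and within replicates 1 to 3 alone Cpa3 (-0.52, adjusted p = 0.0102).

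Among list members named above, Hoxa5 had a mean of 3.06 in RA48 and Meis1 of 1.71, from -1.36 and -1.52 in Control. Pmp22 had means of -2.48 in Control and 3.06 in RA48, and Nid1 of -3.10 in Control and 2.01 in Puromycin. Klf4, below the embryo in Control, was at -0.40 in Puromycin. List medians of smooth muscle were -1.23, -0.38, 0.62 and 0.54 from Control through RA48 and RA96 to Puromycin, and those of interstitial matrix -2.15, -1.70, -1.16 and -1.01. The pluripotency median was 1.09, 0.06, -0.02 and -0.02. In contrast the hepatocyte median was -3.0, -3.08, -2.53 and -2.76, and the skeletal muscle median -2.13, -2.38, -1.94 and -2.09. The median split difference of the hepatocyte genes in RA48 and Puromycin was 1.09, so an unequal share of the sets in RA48 bears on these medians. Mitosis genes had a positive median in each group (1.14, 1.08, 0.79 and 0.66), as did ribosome biogenesis genes (1.44, 0.74, 0.73 and 0.70).

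Sequence around the start site was a property that the ratios had not used. A window was found for 7014 of the 8683 genes, and the first listed window was taken per gene. CpG content is given as the number of CpG observed over that expected from the C and G of the window. The median was 0.823 over 1121 genes called at least 2-fold above the embryo, 0.596 over 848 genes called at least 2-fold below, and 0.768 over all genes with a window. In bins of the mean ratio, the median was 0.309 under -3 (58 genes), 0.521 from -3 to -2, 0.658 from -2 to -1 and 0.742 from -1 to 0. Above 0 it changed little, with 0.806, 0.821 and 0.828 in the next 3 bins and 0.768 over 3 (27 genes). The gradient therefore lay on the side of the genes below the embryo.

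**Figure D5:**
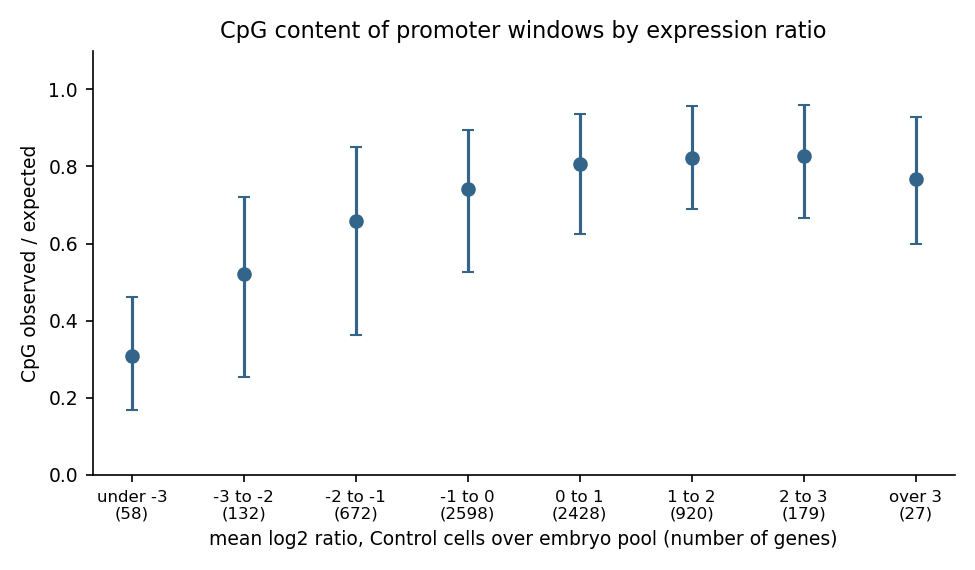
CpG observed over expected in the promoter window (y axis) against the bin of the mean log2 ratio of Control cells over embryo (x axis, number of genes in brackets); points are medians and bars span the 25th to the 75th percentile of genes. Medians climb from 0.309 in the lowest bin to 0.806 in the bin just above 0 and are between 0.768 and 0.828 from there.

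Of the 4 windows printed above, Sox2 had an observed over expected CpG of 0.819, near the median of genes above the embryo, and Pim2 of 1.06, against 0.272 in Alb and 0.270 in Acta2. Short motifs were searched as exact letters on both strands, without regard to overlap between motifs. TATAAA was in 11.3% of windows of genes at least 2-fold below, 7.85% of those at least 2-fold above and 7.13% of all windows. CACGTG, the E-box bound by Myc proteins among others, was in 7.78% below, 13.7% above and 10.7% of all. GGAAGT, a core that ETS family factors recognise, was in 20.9% below, 34.7% above and 28.1% of all. CCGCCC, a GC box, was in 57.8% below, 67.0% above and 64.3% of all. Both CACGTG and CCGCCC hold a CpG, so their shares are not separate from the CpG content of the windows. The octamer ATGCAAAT was in 1.53% below, 1.25% above and 1.35% of all, and the Pim2 window is among those that hold it. The median GC content of the windows was 59.3% below, 60.3% above and 61.0% over all, so it differed less than the CpG content. A match to these letters is a description of the window, not evidence of binding.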

How the data were processed

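RNA of A404 cells (red dye) and of pooled whole embryos (green dye) was hybridised to Agilent oligonucleotide arrays. Per the labels' protocols the scanner was an Agilent G2565AA, and Feature Extraction A.6.1.1 measured the spots. The authors deposited 1 log ratio per probe and array, read here as log10 from the range of its values. Its base, centring and normalization are not given in the sources used here. The direction follows the dyes, with Alb negative on every Control array. Without intensities, which were not used here, detection limits stay unknown, and the number of arrays limits the precision.

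Values were divided by 0.301, the log10 of 2. Of 21446 rows 1166 (5.44%) that carried no gene and at most 6 significant digits on every array were left out as probable control spots. Of the other 20280 probes 11100 had 1 gene symbol in the platform table, 442 several and 8738 none. Probes of 1 symbol were averaged within each array, and all other probes stayed single rows, giving 8683 genes and 9180 other rows. No value was missing.

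The 6 Control arrays were tested against 0 with limma 3.58.1 (R 4.3.3) and empirical Bayes moderation, with Benjamini-Hochberg adjustment over all rows. Array sets were compared within Control, and Puromycin with Control in a fit of all 23 arrays. On simulated data with 200 changed rows, the Control test recovered 34% of changes of 0.5 on the log2 scale and 84% of changes of 1. The set test recovered 25% of changes of 1 and 84% of changes of 2, and the Puromycin test 81% and 98%. Simulated noise was drawn independently for each array, with the spread of each row over the 6 Control arrays, also for the Puromycin test. The 2 sets were thus not simulated, and these shares do not give the recovery in the real arrays. Same-numbered Control and Puromycin arrays deviated together (correlations of 0.298 to 0.490), but this was shared by set and not by number. Within a set the correlations were -0.238 to -0.038, and 1 of 6 arrays correlated best with its own number. The check gives no ground for pairing arrays by number within a set, and calls under the replicate block are given with that limit.

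Named genes are Sox2, Pim2, Alb and Acta2, the 12 largest called means on each side, up to 3 called members per side of each of the 34 lists, and the 5 largest set differences each way. Clone and predicted names were passed over. The lists, written from general knowledge, held 1260 genes, 755 of them on the array and 13 in several lists. The members and lists were chosen with earlier results of these data known. RefSeq promoter windows (GRCm38.p6) matched 7014 genes. Other settings tried were centring, quantile normalization, single probes, the array set as covariate, random block (duplicateCorrelation, statmod 1.5.0) or alone, other thresholds, and leaving out each array. Tables and figures used Python 3.11.15, pandas 2.3.3 and matplotlib 3.10.9.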

Additional observations from a re-analysis of the deposited data

Results flagged for a closer look

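In 13 of the 163 named genes 1 Control array lay far from the other 5 (gap over range above Dixon's critical value of 0.625 for 6 arrays). Chance alone passes this limit in about 1 of 20 groups, and 5.52% of all genes passed it. Above the other arrays lay Sox2 at 8.18 and Orc5 at 5.44 in replicate 5, Ola1 at 6.46 and Gmnn at 3.22 in replicate 4, and Dlx2 at -1.75 in replicate 2. Replicate 1 was high for Sf3a3 at 2.78 and Dhcr7 at 1.08 and low for Rplp2 at -2.82. Replicate 3 was high for Hdac2 at -0.18 and Pold1 at -1.7e-05 and low for Kif4 at 1.74 and Ramp2 at -2.36. Lrp2 was low in replicate 5 at 0.33. No array held more than 4 of these values, and replicate 6 held 0.

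For 18 of the 25 leading and marker genes the ratio to the embryo differed between the Puromycin and the Control group by the limma test of that difference. It was lower in Puromycin for Sox2 (-5.70), Trh (-5.53), Dnmt3b (-5.04), Pim2 (-4.70), Snhg14 (-3.30), Rps6ka6 (-2.37), Lefty1 (-2.33), Zfp991 (-1.87), Mycn (-1.64), Ola1 (-1.42), Sgk1 (-1.41) and Bex4 (-1.37). It was higher for Acta2 (7.30), Igf2 (4.89), Postn (4.50), Lox (3.62), Actg2 (3.25) and Dcn (2.80). These genes were selected for extreme Control values.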

How the results depend on the processing

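The count of 11226 rows called against the embryo stayed within 1.5 times under every setting tried but a test against a 2-fold difference (limma treat), which called 2020. It was 9668 with the array set as a random block, 12567 and 12889 within replicates 1 to 3 and 4 to 6, and 10946 to 11469 without any 1 array. Of these rows 3884 were at least 2-fold, 2020 under treat and 120 if the deposited values are read as log2 instead of log10 (3750 to 4031 without any 1 array). The set difference was called in 5150 rows in Control and 9444 with the same split in RA48 and Puromycin, and in 2888 to 4558 without any 1 Control array, with the lowest counts of 2888 and 3359 without replicates 4 and 5. Puromycin minus Control was called in 8263 rows, 9366 with the replicate number as a block, 10668 with the array set as a block and 7640 to 8037 without any 1 array. The replicate block and the set block each added calls for Stfa1 and Col6a1 and changed no other call among the named genes of that comparison. Reversals against the embryo were those of 3 uncalled genes: Zdhhc13 at 1.00 and Flt4 at 0.069 in replicates 1 to 3 alone, and Smad9 at 0.83 in replicates 4 to 6 alone. Reversals of Puromycin minus Control concerned genes without a call: Alb, which ranged from -0.24 to 0.47 without any 1 array, Trf, which ranged from -0.18 to 0.47, Cpa3 at 0.0073 in replicates 4 to 6 alone, and Ogn at -0.16 in replicates 1 to 3 alone. Leaving out arrays of 1 set shifts the balance between the sets, and other causes were not tested. Among named genes, 89 of the values recomputed against the embryo under another setting lost their call, 58 of them under treat. Without a dye swap, intensities or a repeat of the reference pool, dye bias, detection and the spread of the pool could not be assessed.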

Other observations

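Genes of chromosome 4 and of the X chromosome were shifted upward as a group in the Control arrays. On chromosome 4 the median ratio of 537 genes was 0.25, with array medians of 0.19 to 0.32, and 46.9% of its genes were called higher, against 36.2% of all genes. On the X chromosome the median of 298 genes was 0.22, with array medians of 0.12 to 0.28, and 44.0% were called higher. Medians of the other autosomes lay between -0.13 and 0.09. The chromosome 4 median was 0.37 in RA48, 0.29 in RA96 and 0.24 in Puromycin, and that of the X chromosome 0.28, 0.25 and 0.22. Genes of a chromosome are not independent replicates, all groups share the clone and the reference, and copy number was not tested.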
